A study of Mus musculus with 4 samples.

Results

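Pericyte identity and PDGF signalling were followed in mouse brain after stroke through 10 genes: the ligand Pdgfb, its receptor Pdgfrb, the related receptor Pdgfra, and Rgs5, Vtn, Cspg4, Anpep, Abcc9, Kcnj8 and Atp13a5. PDGF stands for platelet-derived growth factor. The genes were picked by symbol among the rows of the count matrices, and all 10 were found among 31053 genes. Single cells came from the ipsilateral hemisphere of male C57/BL6 mice, 8 weeks old per the labels, after a sham operation or at 1, 3 or 7 days after transient middle cerebral artery occlusion (tMCAO), in which the artery is blocked and then reopened. Tissue was digested with papain, cleared of myelin on Percoll and loaded for 10x Genomics droplet sequencing, with 1 library for each of the 4 groups. The number of mice behind a library is not given in the sources used here, and the design text places the sham animals at day 7. No group has a replicate, so no test was possible. Ratios carry 95% intervals that cover counting error alone, and a day, its mouse or mice and its library cannot be told apart.

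Pericytes wrap the capillaries of the brain and share their basement membrane with the endothelium. Endothelial cells secrete PDGF-B, which is held near the cell surface by heparan sulphate and binds PDGFR-beta on mural cells, and this signal is required to recruit pericytes to vessels and to keep them there. Mural cells run from smooth muscle cells on arteries to pericytes on capillaries, and brain pericytes carry an ATP-sensitive potassium (KATP) channel built from the products of Kcnj8 and Abcc9.

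Between 11744 and 17922 cells were deposited for each library, with 69392755 to 104023002 unique molecular identifiers (UMIs), and 7562 to 14044 of the cells passed limits of 200 to 3000 genes and of 10% mitochondrial UMIs. These limits kept 64.4% of the cells in sham and 75.2, 78.3 and 78.4% on days 1, 3 and 7. Cells were clustered with the 10 genes withheld, and clusters were named from markers that are not among the 10, so the class of a cell does not depend on the genes described here. The pericyte-like class held 313 cells in sham, 684 on day 1, 623 on day 3 and 648 on day 7, and all 7 of its naming markers were detected, among them Higd1b, Ndufa4l2 and Cd248. Its share of kept cells was 4.14% (3.70–4.61) in sham, 5.11% (4.75–5.50) on day 1, 6.64% (6.15–7.17) on day 3 and 4.61% (4.27–4.97) on day 7, with exact binomial intervals. Day 3 had the highest share in the reported setting and in each of 9 alternatives. For every 100 endothelial-like cells there were 7.76, 12.1, 12.8 and 8.81 pericyte-like cells in sham and on days 1, 3 and 7. The endothelial-like class leaves out an unnamed cluster of low depth with 3471 cells, in which all 6 endothelial markers were detected. Digestion sets which cells are recovered, so a share is one of recovered cells. The median depth of pericyte-like cells was 2687, 1387.5, 2152 and 2018 UMIs. Levels are CPM, the UMIs of a gene scaled to the total UMIs of the class and library, with exact Poisson intervals where given. In pericyte-like cells the summed level of 6 endothelial markers was 4082, 5041, 2741 and 3977 CPM, and what part this depth and this RNA have in the ratios below was not tested. A further mural cluster led by Ephx3 and Ano1 held 270 to 489 cells, carried both pericyte and smooth muscle markers and is called here by those genes. A small one led by Ccl19 and Ccl11 held 46 to 91 cells. Finer clustering split nearly all of the pericyte-like class into 2 clusters. The shallower one, of median depth 1165, 1024, 991 and 1345 UMIs, held 31.0, 23.1, 25.04 and 45.7% of the class in sham and on days 1, 3 and 7, so the make-up of the class was not the same in each library. Its endothelial markers summed to 13761, 14244, 12006 and 8969 CPM, against 659, 1382, 648 and 714 CPM in the other cluster, and 39.2, 31.0, 26.9 and 31.8% of its cells were among the 5% of their library with the highest doublet scores. Pairs of libraries shared 33 to 88 cell barcodes. The automatic doublet calls reached 4.35% of cells in the day 1 library and 0.264% or less in the other 3. Calls this uneven were not relied on, so no doublets were removed, and why they differed was not tested.

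**Figure D1:**
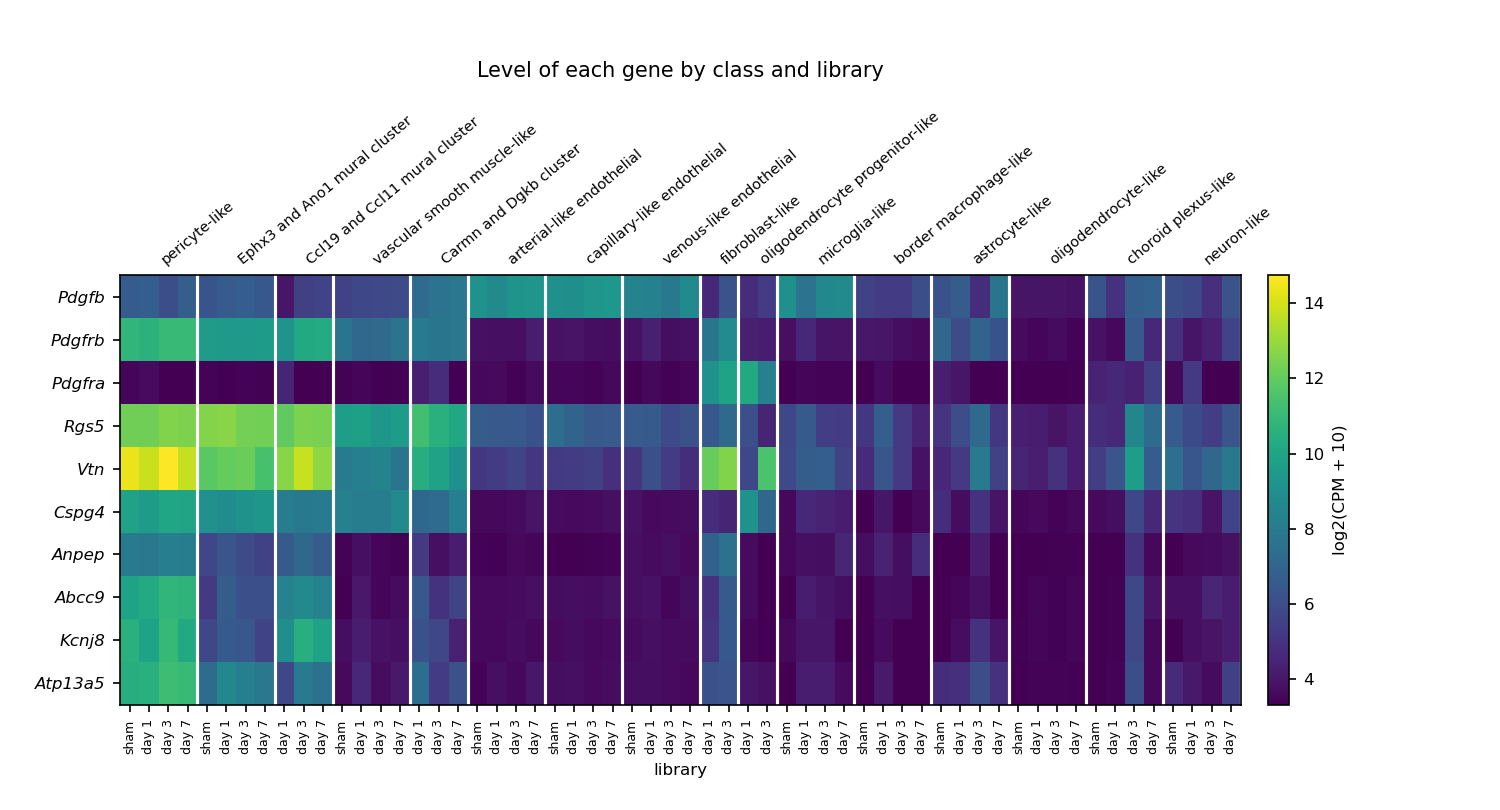
Level of each of the 10 genes as log2(CPM + 10) by class and library, for the classes named above the columns, where a library had at least 50 cells; colours are to be read along a row, since levels of different genes are not comparable in 3′ UMI counts. Pdgfb is bright in the endothelial-like and microglia-like columns, Pdgfra in the oligodendrocyte progenitor-like and fibroblast-like columns, and the other 8 genes in the pericyte-like columns. Of these 8, Rgs5, Pdgfrb, Vtn and Cspg4 are also bright in the Ephx3 and Ano1 cluster, Rgs5, Kcnj8, Vtn and Pdgfrb in the Ccl19 and Ccl11 cluster, which is shown for days 1, 3 and 7, Rgs5 and Cspg4 in smooth muscle-like cells, Rgs5 and Vtn in an unnamed cluster led by Carmn and Dgkb, Vtn in fibroblast-like cells and in progenitor-like cells on day 3, Cspg4 in progenitor-like cells on day 1, and Anpep in fibroblast-like cells.

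The ligand gene Pdgfb (chr15:79995874-80014977, reverse strand, GRCm38) was read mainly in endothelial-like and microglia-like cells, and in the endothelial-like class its level was lowest on day 1 and highest on day 7. Over all endothelial-like cells Pdgfb stood at 502 CPM in sham, 441 on day 1, 512 on day 3 and 601 on day 7. Relative to sham, the ratio was 0.879 (0.850–0.909) on day 1, 1.02 (0.988–1.05) on day 3 and 1.20 (1.16–1.23) on day 7, so the interval excluded 1 on days 1 and 7 only. Endothelial-like clusters were split by zone markers into arterial-like, capillary-like and venous-like cells. Endothelial-like cells without a leading zone, 7.12 to 9.22% of kept cells in a library, were counted in the whole class alone. Capillary-like cells, the zone that pericytes cover, held 528 CPM in sham, 498 on day 1, 602 on day 3 and 659 on day 7. Their ratio to sham was 0.942 (0.8998–0.987) on day 1, 1.14 (1.09–1.19) on day 3 and 1.25 (1.20–1.30) on day 7. In capillary-like cells the median log2 ratio of 6 immediate-early genes, read as a sign of cell preparation, was -0.17, -0.40 and 0.32 on days 1, 3 and 7, against -0.08, 0.03 and 0.07 over all genes tested. On day 7 Fosb and Egr1 passed 2-fold upward in the arterial-like, capillary-like and venous-like cells, as did 1.00, 1.27 and 1.46% of all genes in either direction. Their part in the Pdgfb ratios was not tested. The day 1 value went above 1 when clusters were made without integration (1.16), so its side of 1 depends on how cells are classed.

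In arterial-like cells Pdgfb stood at 576 CPM in sham, 419 on day 1, 589 on day 3 and 615 on day 7, a ratio to sham of 0.728 (0.669–0.791) on day 1, 1.02 (0.953–1.10) on day 3 and 1.07 (0.999–1.14) on day 7. The arterial difference was thus seen on day 1 alone. Venous-like cells held less Pdgfb than the other zones in every library, with 332 CPM in sham, 318 on day 1, 238 on day 3 and 436 on day 7. Their ratio to sham was 0.960 (0.859–1.07) on day 1, 0.719 (0.641–0.807) on day 3 and 1.31 (1.18–1.46) on day 7. On day 3 the capillary-to-venous ratio was 2.52 (2.33–2.74), against 1.59 (1.45–1.75) in sham, 1.56 (1.45–1.69) on day 1 and 1.51 (1.42–1.61) on day 7. Without integration the capillary-to-venous ratio was 2.74 (2.53–2.96) on day 3, 2.05 (1.69–2.50) in sham and 2.64 (2.28–3.08) on day 1, so days 1 and 3 were close. With a gate on marker UMIs it was 1.72 (1.63–1.82) on day 3 and 1.86 (1.63–2.13) in sham. The venous day 3 ratio to sham was itself 1.00 without integration, 1.01 without class markers among the variable genes as well, and 1.18 with the gate. Arterial and capillary levels were close, with an arterial-to-capillary ratio of 1.09 (1.02–1.16) in sham, 0.842 (0.783–0.905) on day 1, 0.979 (0.924–1.04) on day 3 and 0.933 (0.890–0.978) on day 7. The median log2 ratio of the 6 immediate-early genes was 0.49, -0.26 and 0.68 on days 1, 3 and 7 in arterial-like cells, against -0.07, -0.02 and 0.03 over all genes tested, and -0.03, -0.44 and 0.52 in venous-like cells, against -0.16, -0.10 and 0.06. Their part in the ratios of these zones was not tested. Pdgfb differed 2-fold from sham in no zone on any day. Among all genes tested, 3.05, 2.02 and 1.27% did in capillary-like cells, 2.89, 1.43 and 1.00% in arterial-like cells and 3.89, 5.51 and 1.46% in venous-like cells.

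Microglia-like cells, the resident macrophages of the brain, also carried Pdgfb, with 516 CPM in sham, 191 on day 1, 393 on day 3 and 435 on day 7. In sham this did not differ from the endothelial-like level beyond counting error, with a microglia-to-endothelial ratio of 1.03 (0.907–1.16). That ratio was 0.434 (0.395–0.476) on day 1, 0.767 (0.702–0.835) on day 3 and 0.724 (0.662–0.791) on day 7. Against sham, microglia-like Pdgfb was 0.371 (0.318–0.432) on day 1, 0.760 (0.656–0.883) on day 3 and 0.843 (0.725–0.982) on day 7, below 1 on all 3 days. The class joins a cluster led by Ccl4 and Cx3cr1 with a shallower one, of median depth 946, 1222, 932 and 931 UMIs, led by Elane and Prtn3, which are genes of granulocyte precursors. This second cluster made up 39.8, 51.6, 39.8 and 43.8% of the class in sham and on days 1, 3 and 7 and carried 13005, 5847, 10636 and 13739 CPM of endothelial markers. In the Ccl4 and Cx3cr1 cluster Pdgfb stood at 575, 197, 428 and 452 CPM, with ratios to sham of 0.343 (0.290–0.405), 0.744 (0.637–0.872) and 0.785 (0.669–0.923). In the Elane and Prtn3 cluster it stood at 255, 175, 247 and 362 CPM, with ratios of 0.686 (0.438–1.11), 0.967 (0.600–1.61) and 1.42 (0.890–2.35), all with intervals that included 1. Over the whole class, day 1 passed 2-fold, as did 14.5% of all genes tested in the class, and days 3 and 7 did not, when 4.39 and 3.80% of genes did. The endothelial-like ratio on day 1 was 0.879, and the difference between both classes was not tested. Endothelial markers in microglia-like cells summed to 3085, 2026, 2806 and 3377 CPM, against 26131, 24861, 30534 and 22958 CPM in endothelial-like cells of the same libraries. Thinned to 1000 UMIs each, 30.0, 17.05, 27.7 and 34.0% of microglia-like cells held a Pdgfb UMI, as did 40.7, 35.7, 41.1 and 45.1% of endothelial-like cells and 0.571, 0.943, 0.759 and 0.724% of oligodendrocyte-like cells. Thinning left out shallower cells, 41 of 161, 141 of 663, 124 of 427 and 113 of 381 microglia-like and 215 of 4032, 895 of 5668, 266 of 4857 and 611 of 7354 endothelial-like cells in sham and on days 1, 3 and 7. Of the microglia-like cells left out, 35, 126, 96 and 92 were in the Elane and Prtn3 cluster. The median depths before thinning were 1889, 2611, 2329 and 2152 UMIs in microglia-like cells and 8015, 4908, 6769 and 6845 UMIs in oligodendrocyte-like cells. Border macrophage-like cells, macrophages of the brain's borders, stood at 35.5, 29.9, 31.1 and 56.7 CPM, and oligodendrocyte-like cells, which should lack the gene and serve as the background, at 5.28, 5.75, 5.37 and 4.87 CPM. Microglia-like cells were few, and they gave 2.97 to 5.84% of a library's Pdgfb UMIs, while capillary-like cells gave 33.9 to 43.9%.

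**Figure D2:**
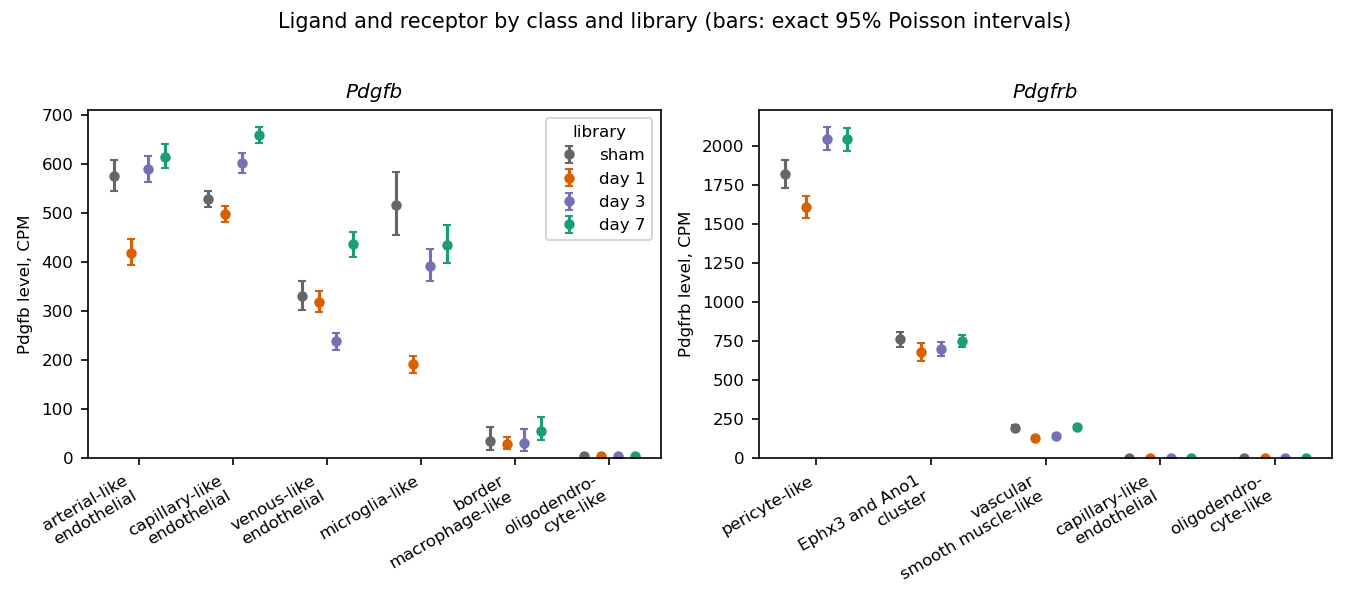
Pdgfb (left) and Pdgfrb (right) in CPM by class, with 1 point per library and exact 95% Poisson intervals as bars. Pdgfb is lowest on day 1 in arterial-like, capillary-like and microglia-like cells, and Pdgfrb stands between 1608 and 2048 CPM in pericyte-like cells and under 10 CPM in capillary-like endothelial and oligodendrocyte-like cells.

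The receptor gene Pdgfrb (chr18:61045150-61085061, forward strand) was a mural gene in all 4 libraries, and its level in pericyte-like cells stayed close to that of sham. It stood at 1818 (1730.1–1909.9) CPM in sham, 1608 (1537–1681) on day 1, 2048 (1974–2125) on day 3 and 2043 (1970.0–2118) on day 7. The ratio to sham was 0.884 (0.827–0.945) on day 1, 1.13 (1.06–1.20) on day 3 and 1.12 (1.06–1.19) on day 7, so day 1 lay below sham and days 3 and 7 above it. In the deeper of both clusters that make up the class, whose endothelial marker level was lower, the ratio was 0.944 (0.877–1.02) on day 1, 1.06 (0.993–1.14) on day 3 and 1.18 (1.10–1.26) on day 7, so only the day 7 interval left out 1 there. In the shallower cluster it was 0.701 (0.596–0.825), 1.31 (1.13–1.52) and 1.21 (1.06–1.39), and each interval left out 1. Below pericyte-like cells, the Ephx3 and Ano1 cluster held 762 CPM in sham, 681 on day 1, 698 on day 3 and 752 on day 7, with ratios to sham of 0.893 on day 1, 0.916 on day 3 and 0.987 on day 7. Vascular smooth muscle-like cells followed at 197 CPM in sham, 131 on day 1, 146 on day 3 and 201 on day 7. In these cells the ratio to sham was 0.664 (0.584–0.754) on day 1, 0.737 (0.659–0.824) on day 3 and 1.02 (0.930–1.12) on day 7, so days 1 and 3 were lower and day 7 was not. Endothelial markers in these cells summed to 186, 1413, 319.9 and 339 CPM in sham and on days 1, 3 and 7, and pericyte markers to 1163, 1339.8, 1111 and 751 CPM, and the part of this shift in the smooth muscle-like ratios was not tested. None of the 10 genes passed 2-fold in smooth muscle-like cells, where 2.63% of genes did on day 1, 0.402% on day 3 and 1.43% on day 7. The Ccl19 and Ccl11 cluster, which had fewer than 50 cells in sham, stood at 590.4 CPM on day 1, 1204 on day 3 and 1282 on day 7, and thus between pericyte-like cells and the Ephx3 and Ano1 cluster on the later days. Endothelial-like cells were at 4.95, 6.99, 4.05 and 4.44 CPM, and oligodendrocyte-like cells at 2.73, 1.62, 2.49 and 0.785 CPM, both far below the mural classes. The pericyte-to-smooth-muscle ratio of Pdgfrb was 9.21 (8.44–10.1) in sham, 12.3 (10.9–13.8) on day 1, 14.1 (12.8–15.5) on day 3 and 10.2 (9.51–10.9) on day 7. The ratio of pericyte-like cells to the Ephx3 and Ano1 cluster was 2.39 (2.20–2.59) in sham, 2.36 (2.14–2.61) on day 1, 2.93 (2.72–3.17) on day 3 and 2.72 (2.55–2.89) on day 7, so the order of these 3 classes held in every library beyond counting error. Pericyte-like cells gave 41.9% of the sham library's Pdgfrb UMIs, 54.7% on day 1, 57.6% on day 3 and 46.2% on day 7.

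The limit on genes per cell moved the Pdgfrb result further. When cells of up to 6000 genes were kept, the pericyte-like ratio to sham was 1.33 on day 1, 1.73 on day 3 and 1.68 on day 7. That limit added 87 pericyte-like cells in sham and 13 to 27 in the other libraries. In sham the added cells had a median of 10262 UMIs, gave 51.9% of the class's UMIs and summed to 14783 CPM of endothelial markers, against 4082 CPM in the cells kept under 3000 genes. Their pericyte markers summed to 3858 CPM, against 8407 CPM.

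The related receptor gene Pdgfra (chr5:75152292-75198215, forward strand) was all but unread in pericyte-like cells, with 1, 3, 0 and 0 UMIs in sham and on days 1, 3 and 7. The counts of 0 allow up to 2.14 CPM on day 3 and 2.06 CPM on day 7. PDGFR-alpha is the classical receptor of oligodendrocyte progenitors and fibroblasts, and these classes held most of its UMIs. Oligodendrocyte progenitor-like cells stood at 1209 CPM on day 1 (242 cells) and 308 CPM on day 3 (58 cells). Sham and day 7 had 43 such cells each, under the 50 set for a comparison, and 1272 and 1783 CPM. The class was not made up alike in each library. At the finer clustering 38, 235, 21 and 43 of its cells in sham and on days 1, 3 and 7 were in a cluster named for progenitors, where Pdgfra stood at 1535, 1216, 968 and 1783 CPM. Another 37 of the 58 day 3 cells were in an unnamed cluster led by Npy and Fabp7 and held 0 Pdgfra UMIs, so the day 3 level of the class is one of mixed clusters. With up to 6000 genes allowed, the class held 147, 276, 86 and 85 cells in sham and on days 1, 3 and 7, and Pdgfra stood at 859.6, 992, 273 and 895 CPM. The ratio to sham was then 1.155 (1.06–1.26) on day 1, 0.318 (0.267–0.377) on day 3 and 1.04 (0.940–1.153) on day 7. The make-up of the class by finer clusters was not examined under that limit. Fibroblast-like cells held 535 CPM on day 1 and 972 CPM on day 3, with 32 and 30 cells in sham and on day 7. They also carried Pdgfrb, at 205 CPM on day 1 and 440.5 CPM on day 3, and Vtn, at 4386 and 6121 CPM.

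Within pericyte-like cells, 9 of the 10 genes passed the low-level limit of 20 CPM, and none of the 9 differed 2-fold from sham on any day on the scale of log2(CPM + 10), on which all counts of 2-fold differences are made. Of all genes tested in the class, 2.94% passed 2-fold on day 1, 1.80% on day 3 and 2.54% on day 7. Abcc9 lay closest to the limit, and on day 3 it passed when cells were classed without integration, by a gate on marker UMIs or under a 5% mitochondrial limit, while Abcc9 and Atp13a5 both passed with cells of up to 6000 genes. The ratios still fell into 3 patterns, a grouping made after the values were seen. Pdgfrb, Rgs5, Cspg4 and Anpep kept within 0.851 to 1.24 of sham as reported, but Pdgfrb and Cspg4 reached 1.73 and 1.81 on day 3 with cells of up to 6000 genes. Abcc9 and Atp13a5 were above sham on all 3 days, most on day 3. Vtn and Kcnj8 were below sham on days 1 and 7 and above it on day 3. The 7 naming markers of the class took the same directions, summing to 8407, 7980, 10194 and 6587 CPM in sham and on days 1, 3 and 7. In the deeper of the 2 clusters of the class they summed to 10050, 9663, 11320 and 8250 CPM. Their part in these patterns was not tested. With the shallower cluster left out, a setting chosen after seeing the data, Vtn was 0.676, 1.149 and 0.642 times sham on days 1, 3 and 7, Kcnj8 0.637, 1.18 and 0.848, Abcc9 1.33, 1.75 and 1.85, and Atp13a5 1.12, 1.52 and 1.51. Within the shallower cluster alone, the Kcnj8 ratio of day 7 was 1.150 (0.942–1.41) and the Abcc9 and Atp13a5 ratios of day 1 were 1.06 (0.846–1.32) and 0.993 (0.811–1.22), with intervals that included 1. In that cluster Abcc9 was 2.30 (1.88–2.82) on day 3 and 2.05 (1.70–2.49) on day 7. Atp13a5 was 2.32 (1.93–2.79) and 2.25 (1.91–2.68) there. These day 3 and day 7 ratios were above 2, and the share of all genes past 2-fold was not computed for that cluster. The remaining gene, Pdgfb, is read in these cells beside endothelial markers and is given further on.

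**Figure D3:**
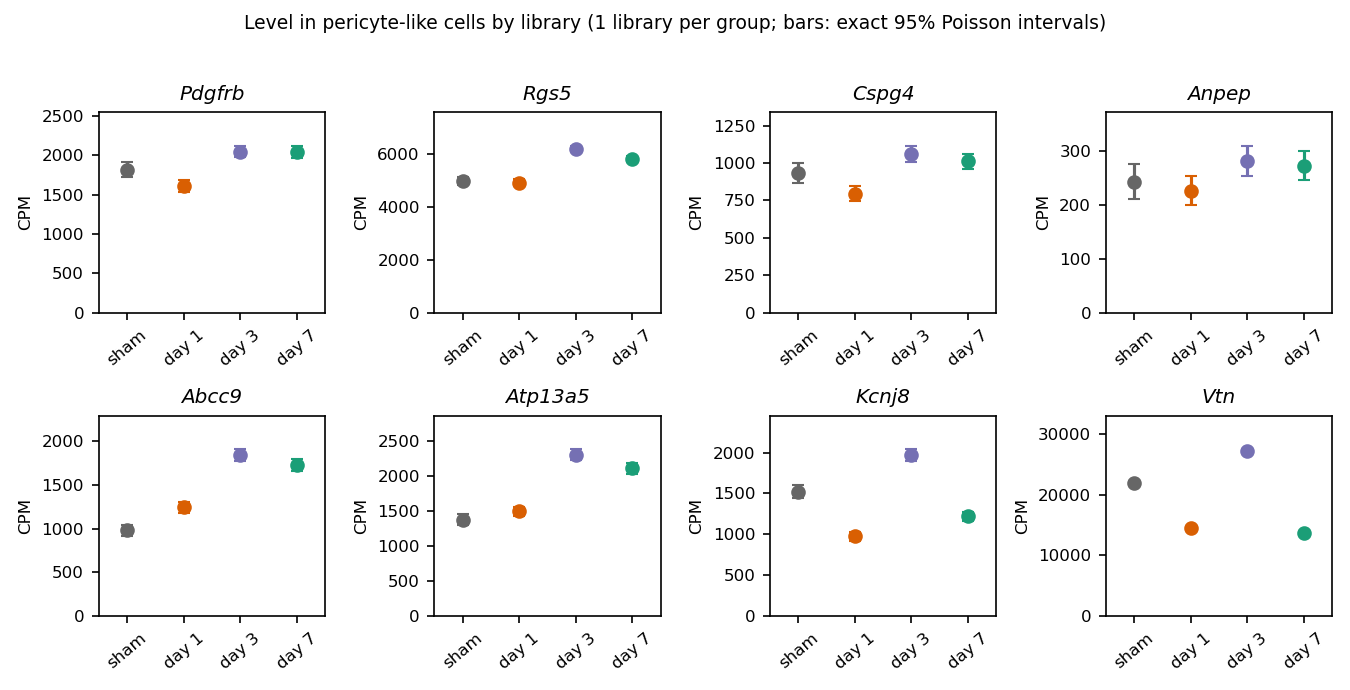
Level in CPM of 8 genes in pericyte-like cells, with 1 point per library and exact 95% Poisson intervals as bars; each panel starts at 0. Abcc9 and Atp13a5 stand above sham on all 3 days, whereas Kcnj8 and Vtn are low on days 1 and 7 and high on day 3.

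Rgs5 (chr1:169655501-169695813, forward strand), a regulator of G-protein signalling and a common mural marker, stood at 4967 CPM in sham, 4900.0 on day 1, 6170.4 on day 3 and 5791 on day 7 in pericyte-like cells. Its ratio to sham was 0.987 (0.948–1.03) on day 1, 1.24 (1.20–1.29) on day 3 and 1.17 (1.12–1.21) on day 7. With a gate on marker UMIs the day 3 ratio was 0.999. With no integration, the ratios of days 3 and 7 were 0.979 and 0.905, so the direction of this gene depends on how cells are classed. In the Ephx3 and Ano1 cluster Rgs5 stood at 6195 CPM in sham, 6674 on day 1, 5145 on day 3 and 5029 on day 7. The ratio there was 1.08 (1.04–1.12) on day 1, 0.830 (0.804–0.858) on day 3 and 0.812 (0.788–0.836) on day 7, so the order of both classes turned: this cluster held more Rgs5 than pericyte-like cells in sham and on day 1, and less on days 3 and 7. The Ccl19 and Ccl11 cluster held 3982 CPM on day 1, 5633 on day 3 and 5546 on day 7, and the pericyte-like level was 1.23 (1.16–1.31), 1.10 (1.03–1.16) and 1.04 (0.987–1.11) times this, so on day 7 these classes did not differ beyond counting error. Smooth muscle-like cells were at 807 CPM in sham, 900.5 on day 1, 653 on day 3 and 792 on day 7. Endothelial-like cells held a low level of Rgs5 that was lower on each day than in sham, at 168 CPM in sham, 123 on day 1, 88.6 on day 3 and 86.0 on day 7. The endothelial ratio was 0.736 (0.693–0.782) on day 1, 0.529 (0.494–0.565) on day 3 and 0.513 (0.483–0.545) on day 7. Pericyte markers in endothelial-like cells summed to 39.2, 47.6, 36.9 and 23.0 CPM in the same order, and their part in this ratio was not tested.

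Cspg4 (chr9:56865033-56899870, forward strand) encodes the proteoglycan NG2, which pericytes share with oligodendrocyte progenitors. In pericyte-like cells it stood at 931 CPM in sham, 793 on day 1, 1061 on day 3 and 1009.7 on day 7, a ratio to sham of 0.851 (0.774–0.936) on day 1, 1.14 (1.05–1.24) on day 3 and 1.08 (0.994–1.18) on day 7. In the deeper cluster of the class it was 0.953 (0.858–1.06) on day 1, 1.08 (0.978–1.19) on day 3 and 1.155 (1.04–1.28) on day 7, and the intervals of days 1 and 3 included 1. In the shallower cluster it was 0.547 (0.436–0.687), 1.36 (1.12–1.65) and 1.05 (0.880–1.26), and the interval of day 7 alone included 1. With up to 6000 genes the ratios were 1.34, 1.81 and 1.68 on days 1, 3 and 7, so day 1 lay above sham instead of below. Smooth muscle-like cells held 305 CPM in sham, 278 on day 1, 274 on day 3 and 417 on day 7, with a ratio of 0.911 (0.830–0.999) on day 1, 0.898 (0.825–0.977) on day 3 and 1.37 (1.28–1.47) on day 7. Progenitor-like cells held 551 CPM on day 1, when that class was largest and gave 15.1% of the library's Cspg4 UMIs. Anpep (chr7:79821803-79861059, reverse strand) encodes aminopeptidase N, also called CD13, a surface enzyme of brain pericytes. It stood at 242 CPM in sham, 226 on day 1, 282 on day 3 and 273 on day 7 in pericyte-like cells. None of its ratios, 0.934 (0.778–1.12) on day 1, 1.16 (0.982–1.38) on day 3 and 1.13 (0.952–1.34) on day 7, had an interval that left out 1. Anpep was at or under 3.64 CPM in smooth muscle-like cells, where Cspg4 was well read.

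The gene Abcc9 (chr6:142587862-142702315, reverse strand) encodes SUR2, the regulatory subunit of the KATP channel, and Kcnj8 (chr6:142564837-142571614, reverse strand) encodes Kir6.1, the subunit that forms its pore. They lie side by side on the same strand, 16247 bases apart with 0 protein-coding genes between them. Pericyte-like cells gave 80.0 to 87.9% of each library's Abcc9 UMIs and 74.3 to 82.2% of its Kcnj8 UMIs. The small Ccl19 and Ccl11 cluster gave 9.94 to 10.9% of the Kcnj8 UMIs and held 509 CPM on day 1, 1460.5 on day 3 and 936 on day 7, and the pericyte-like level was 1.91 (1.62–2.27), 1.35 (1.20–1.51) and 1.30 (1.14–1.497) times this. For Abcc9 the pericyte-like level was 3.88 (3.17–4.79), 4.36 (3.56–5.396) and 5.36 (4.30–6.76) times that of this cluster. Abcc9 stood at 978 (914–1046) CPM in sham, 1242 (1179.6–1307) on day 1, 1838 (1768–1910.4) on day 3 and 1728 (1662–1797) on day 7. Its ratio to sham was 1.27 (1.17–1.38) on day 1, 1.88 (1.74–2.03) on day 3 and 1.77 (1.63–1.91) on day 7, above 1 on all 3 days. Kcnj8 stood at 1521 (1441–1605) CPM in sham, 973 (918–1030.5) on day 1, 1969 (1896–2043) on day 3 and 1219 (1163–1277) on day 7. The Kcnj8 ratio was 0.640 (0.591–0.692) on day 1, 1.29 (1.21–1.38) on day 3 and 0.801 (0.746–0.861) on day 7, below 1 on days 1 and 7 and above 1 on day 3. With cells of up to 6000 genes the day 7 ratio was 1.11. Between days, the Kcnj8 level of day 3 was 2.02 (1.89–2.17) times that of day 1, and the level of day 7 was 0.619 (0.583–0.658) times that of day 3. For Abcc9 these steps were 1.48 (1.39–1.58) and 0.940 (0.890–0.994). Neither of the other KATP subunit genes was readable: Kcnj11 had 1 UMI in sham and 0 on the 3 days, and Abcc8 had 1 UMI on day 1 and 0 elsewhere.

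A ratio of both counts within the same cells needs no scaling to library depth. Taken day over sham, it is the Abcc9 ratio divided by the Kcnj8 ratio, so it restates the levels of the 2 channel subunits. For each Kcnj8 UMI, pericyte-like cells held 0.643 Abcc9 UMIs in sham, 1.28 on day 1, 0.934 on day 3 and 1.42 on day 7. Relative to sham this was 1.98 (1.77–2.23) on day 1, 1.45 (1.31–1.61) on day 3 and 2.20 (1.98–2.45) on day 7, with approximate intervals from the counts. Over 10 settings of clustering, cell limits and doublets this quotient ranged from 1.94 to 2.17 on day 1, from 1.41 to 1.62 on day 3 and from 2.10 to 2.36 on day 7. None of these settings separated the 2 clusters of the class, and the quotient was not computed for each. In sham the shallower cluster held 135 Abcc9 and 133 Kcnj8 UMIs, and the deeper one 721 and 1198. In the shallower cluster Abcc9 was 1.06, 2.30 and 2.05 times sham on days 1, 3 and 7, and Kcnj8 0.760, 1.68 and 1.150 times. In the Ephx3 and Ano1 cluster, where each gene had 37 to 113 UMIs a library, the same quotient was 1.66 (0.973–2.82), 1.23 (0.739–2.06) and 2.26 (1.36–3.75). Abcc9 overlaps an annotated antisense gene, 5330439B14Rik, as Pdgfb overlaps Gm41361 and Pdgfra overlaps Gm42802 and Gm42803. Whether the counting used strand is not given in the sources used here, so reads of these pairs may not have been told apart. On the same strand, Atp13a5 overlaps Gm15752, Anpep overlaps Gm44974, Pdgfb overlaps Mir7213 and Pdgfra overlaps Mir7025, and strand cannot part their reads.

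**Figure D4:**
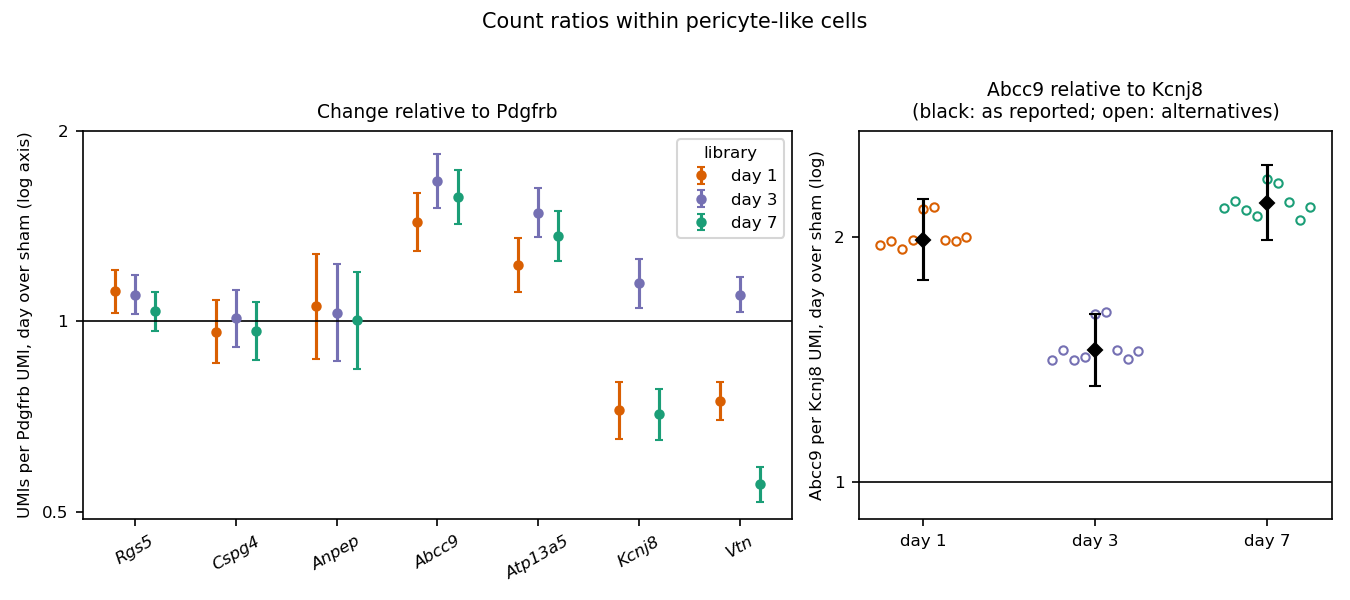
Left: UMIs of each gene per Pdgfrb UMI in pericyte-like cells, each day over sham, on a log axis with approximate 95% intervals; right: Abcc9 UMIs per Kcnj8 UMI, each day over sham, with the reported value in black and the alternatives as open circles. Rgs5, Cspg4 and Anpep lie near 1, Abcc9 and Atp13a5 lie above it, and the Abcc9-to-Kcnj8 change is 1.98, 1.45 and 2.20.

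Atp13a5 (chr16:29231851-29378732, reverse strand), which encodes a P-type ATPase of the P5 family and marks brain pericytes, followed Abcc9 rather than Kcnj8. It stood at 1381 (1304–1461) CPM in sham, 1497 (1429–1568) on day 1, 2312 (2233–2393) on day 3 and 2115 (2041–2191) on day 7 in pericyte-like cells. Its ratio to sham was 1.08 (1.01–1.17) on day 1, 1.67 (1.57–1.79) on day 3 and 1.53 (1.43–1.64) on day 7. The number of Atp13a5 UMIs per Abcc9 UMI, relative to sham, was 0.854 (0.764–0.955), 0.891 (0.805–0.987) and 0.867 (0.783–0.960). In the Ephx3 and Ano1 cluster Atp13a5 stood at 153 CPM in sham, 397 on day 1, 295 on day 3 and 219.8 on day 7, and Abcc9 at 28.5 CPM in sham, 91.9 on day 1, 59.9 on day 3 and 59.3 on day 7. These 2 genes passed 2-fold there on day 1, with ratios of 2.59 (2.16–3.12) and 3.23 (2.14–4.94), as did 4.16% of all genes tested. No other of the 10 genes passed 2-fold in that cluster, where 1.42% of genes did on day 3 and 1.87% on day 7. On day 1 the endothelial markers of the cluster summed to 2437 CPM, against 276 in sham, and its smooth muscle markers to 22153 CPM, against 30526. Its pericyte markers summed to 5291 CPM on day 1, against 4154 in sham. Their part in this result was not tested.

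The stretch before the start of 4 of these genes is printed because their levels in pericyte-like cells differed from sham in different ways: Abcc9 and Atp13a5 above sham on all 3 days, Kcnj8 and Vtn high on day 3 alone. The windows are from RefSeq on GRCm38.p6, run 5′ to 3′ on the gene's strand and stop where the GENCODE gene begins, and capitals mark a match to TATAAA or GGGCGG on either strand.
Abcc9, chr6:142702316-142702524, reverse strand: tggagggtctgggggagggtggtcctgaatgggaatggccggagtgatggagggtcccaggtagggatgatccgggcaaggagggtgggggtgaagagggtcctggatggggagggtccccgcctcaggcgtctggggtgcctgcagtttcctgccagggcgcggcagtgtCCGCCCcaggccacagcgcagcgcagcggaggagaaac
Kcnj8, chr6:142571615-142571864, reverse strand: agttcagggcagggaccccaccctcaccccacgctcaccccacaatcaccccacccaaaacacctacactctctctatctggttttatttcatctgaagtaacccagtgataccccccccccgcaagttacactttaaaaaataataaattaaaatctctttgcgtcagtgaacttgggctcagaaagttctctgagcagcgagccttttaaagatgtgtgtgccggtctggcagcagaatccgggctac
Atp13a5, chr16:29378733-29378982, reverse strand: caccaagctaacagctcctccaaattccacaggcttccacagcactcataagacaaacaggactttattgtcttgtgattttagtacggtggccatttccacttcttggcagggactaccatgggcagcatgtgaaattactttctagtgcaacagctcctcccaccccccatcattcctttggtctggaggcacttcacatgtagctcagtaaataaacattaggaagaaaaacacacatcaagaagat
Vtn, chr11:78498870-78499090, forward strand: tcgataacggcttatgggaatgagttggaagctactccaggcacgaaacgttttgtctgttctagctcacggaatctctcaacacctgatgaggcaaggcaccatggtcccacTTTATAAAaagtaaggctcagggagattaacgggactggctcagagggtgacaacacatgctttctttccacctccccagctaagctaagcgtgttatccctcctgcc
Over the full 250 bases before the RefSeq start, part of which is not printed for Abcc9 and Vtn, the GC content was 66.8% for Abcc9, 49.2% for Kcnj8, 44.8% for Atp13a5 and 50.4% for Vtn, with a median of 52.4% over all 32851 windows. Windows were available for 8 of the 10 genes, not for Pdgfb and Pdgfrb. In the 250 bases before each RefSeq start, 5 short motifs were searched on both strands. The TATA box TATAAA was found in Vtn alone, where 1 match on each strand overlaps the other, and in 12.4% of all windows. The GC box GGGCGG was found once in Abcc9, 2 times in Cspg4 and 3 times in Anpep, and in 32.7% of all windows. The RBPJ core motif TGGGAA was found once each in Vtn and Abcc9, and in 21.6% of windows. The forkhead motif TGTTTAC and the CArG box were in none of the 8 windows, and in 3.17% and 1.47% of all windows. Kcnj8, Atp13a5, Rgs5 and Pdgfra held none of the 5 motifs.

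Vtn (chr11:78499091-78502324, forward strand) encodes vitronectin, an adhesive protein of plasma and matrix that brain pericytes secrete. It stood at 21957 (21648–22270.0) CPM in sham, 14538 (14323–14756) on day 1, 27269 (26997–27544) on day 3 and 13644 (13455–13835) on day 7 in pericyte-like cells. Relative to sham the ratio was 0.662 (0.649–0.676) on day 1, 1.24 (1.22–1.26) on day 3 and 0.621 (0.609–0.634) on day 7. The level of day 7 was 0.5003 (0.492–0.509) times that of day 3. Smooth muscle-like cells held 254 CPM in sham, 294 on day 1, 336 on day 3 and 206 on day 7, a ratio of 1.16 (1.05–1.27) on day 1, 1.32 (1.22–1.44) on day 3 and 0.810 (0.745–0.881) on day 7, so the day 1 difference was in the other direction there, in the class whose endothelial markers were 1413 CPM on that day and 186 CPM in sham. The Ephx3 and Ano1 cluster stood at 3549 CPM in sham, 4251 on day 1, 4626 on day 3 and 2749 on day 7, again above sham on day 1 with 1.20 (1.14–1.25). Some Vtn was read outside mural cells: oligodendrocyte-like cells, which should lack it, held 12.6, 9.70, 22.2 and 8.16 CPM, highest on day 3 as in pericyte-like cells. Oligodendrocyte progenitor-like cells held 45.8 CPM on day 1 and 2924 CPM on day 3, where 677 of its 683 Vtn UMIs were in the 37 cells of the unnamed Npy and Fabp7 cluster. Vtn stood at 4253 CPM and the pericyte markers at 62.8 CPM in that cluster, against 80.7 CPM of Vtn in the cluster named for progenitors. Choroid plexus-like cells held 31.7, 69.3, 819 and 89.2 CPM, and the source of Vtn in these cells was not tested. In venous-like endothelial cells Vtn stood at 23.9 CPM in sham, 58.2 on day 1, 29.8 on day 3 and 18.1 on day 7 and passed 2-fold on day 1, with 2.43 (1.69–3.60), as did 3.89% of all genes tested. It was the only one of the 10 genes to do so in a named endothelial zone. Pericyte markers in those cells summed to 40.5, 44.0, 25.9 and 15.4 CPM, and their part was not tested.

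Set against Pdgfrb in the same cells, the genes could be read without scaling to depth. Each value is the gene's ratio to sham divided by that of Pdgfrb. It thus restates the levels above and is no separate evidence for the 3 patterns. UMIs per Pdgfrb UMI, relative to sham, were 1.12 (1.03–1.21), 1.10 (1.03–1.18) and 1.04 (0.967–1.11) for Rgs5 on days 1, 3 and 7. For Cspg4 they were 0.962 (0.858–1.08), 1.01 (0.910–1.12) and 0.965 (0.869–1.07), and for Anpep they were 1.06 (0.872–1.28), 1.03 (0.864–1.23) and 1.00 (0.840–1.20). These last 2 genes kept their proportion to Pdgfrb within counting error on all 3 days. The proportion of Abcc9 was 1.44 (1.29–1.60), 1.67 (1.51–1.84) and 1.57 (1.42–1.74). That of Atp13a5 was 1.23 (1.11–1.35), 1.49 (1.36–1.63) and 1.36 (1.25–1.49). Kcnj8 stood at 0.723 (0.653–0.802), 1.149 (1.05–1.26) and 0.713 (0.650–0.783). Vtn stood at 0.749 (0.699–0.803), 1.10 (1.03–1.17) and 0.553 (0.519–0.590). In the smooth muscle-like class, where Pdgfrb itself was lower on days 1 and 3, the proportions of Rgs5, Vtn and Cspg4 to it on day 1 were 1.68, 1.74 and 1.37 times those of sham.

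Pdgfb in pericyte-like cells stood at 91.4 CPM in sham, 100.2 on day 1, 57.8 on day 3 and 99.5 on day 7, a ratio to sham of 1.10 (0.819–1.47) on day 1, 0.632 (0.458–0.872) on day 3 and 1.09 (0.823–1.45) on day 7. The day 1 ratio was 0.638 with a gate on marker UMIs and 0.704 with cells of up to 6000 genes, and the day 3 ratio was 0.979 with the 2 unnamed mural clusters counted as pericyte-like, a setting chosen after seeing the data. Most of these UMIs came from the shallower, endothelial marker-rich cluster of the class, which held 254, 270.0, 232 and 212 CPM in sham and on days 1, 3 and 7, against 34.0, 32.7, 18.4 and 26.1 CPM in the deeper one. The day 3 ratio was 0.916 (0.628–1.34) in the shallower and 0.540 (0.282–1.03) in the deeper cluster, and both intervals included 1. Smooth muscle-like cells held 36.2 CPM in sham, 44.8 on day 1, 47.5 on day 3 and 51.4 on day 7, with ratios of 1.24 on day 1, 1.31 on day 3 and 1.42 on day 7.

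Cell by cell, most pericyte-like cells carried several of the genes at once. To set cells of different depth side by side, each cell was thinned to 1000 UMIs, which left out 41, 189, 82 and 81 shallower cells in sham and on days 1, 3 and 7. Of 8 genes (all but Pdgfb and Pdgfra), a cell then held a mean of 5.46, 5.30, 6.07 and 5.72, against 3.25 to 4.39 in the Ccl19 and Ccl11 cluster, 2.92 to 3.25 in the Ephx3 and Ano1 cluster and 0.941 to 1.03 in smooth muscle-like cells. An Abcc9 UMI was found in 55.9% (49.8–61.9) of sham cells, 62.4% (58.0–66.7) on day 1, 78.4% (74.7–81.8) on day 3 and 72.3% (68.4–76.0) on day 7. Without thinning these shares were 75.7, 75.7, 89.2 and 86.0%. A Kcnj8 UMI was found in 63.6% (57.6–69.3), 54.1% (49.6–58.6), 73.2% (69.3–76.9) and 59.8% (55.6–63.9), and without thinning in 79.6, 64.8, 83.8 and 77.0%. The thinned shares kept the order of the levels for both genes. Pdgfrb was found in 79.4, 72.9, 81.7 and 81.3% after thinning and in 92.0, 89.5, 94.4 and 93.1% before it. In oligodendrocyte-like cells of median depth 8015, 4908, 6769 and 6845 UMIs, thinned in the same way, no more than 1.26% held a UMI of any of the 10 genes.

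Over all kept cells of a library, where fewer cells of a type and less RNA per cell cannot be told apart, 6 of the 10 genes were below sham on day 1, as were 56.4% of all genes tested. Pdgfrb stood at 122 CPM in sham, 77.8 on day 1, 149 on day 3 and 144 on day 7, a ratio to sham of 0.638 on day 1, 1.22 on day 3 and 1.18 on day 7. Pdgfb stood at 285 CPM in sham, 189 on day 1, 286 on day 3 and 341 on day 7, with ratios of 0.665 on day 1, 1.00 on day 3 and 1.20 on day 7. On day 1 endothelial-like cells made up 42.4% (41.5–43.2) of kept cells, against 53.3% (52.2–54.4) in sham, and oligodendrocyte-like cells 15.9% (15.2–16.5), against 9.27% (8.63–9.95). Pdgfra was above sham on that day, with 11.01 CPM in sham, 31.0 on day 1, 7.81 on day 3 and 9.31 on day 7, beside a share of progenitor-like cells of 0.569% (0.412–0.765), 1.81% (1.59–2.05), 0.618% (0.470–0.799) and 0.306% (0.222–0.412). Abcc9 and Atp13a5 passed 2-fold on day 3, with ratios of 2.73 (2.54–2.93) and 2.38 (2.24–2.53), as did 1.70% of all genes tested. With cells of up to 6000 genes neither passed. Kcnj8 stood at 52.0 CPM in sham, 34.6 on day 1, 101 on day 3 and 49.1 on day 7, and Vtn at 903 CPM in sham, 627 on day 1, 1581 on day 3 and 674 on day 7, both highest on day 3. Within pericyte-like cells the day 3 ratios of Abcc9 and Atp13a5 were 1.88 and 1.67, and the share of pericyte-like cells on day 3 was 1.60 times that of sham. None of the 10 genes passed 2-fold over all cells on day 1 or day 7, when 4.28 and 1.17% of genes did.

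Other genes of the pathway, from lists chosen with earlier results of these data known, were read beside the 10. Of 12 genes that act below the PDGF receptors, all passed the low-level limit in pericyte-like cells, and Rasa1 alone passed 2-fold, on each day, as did 2.94, 1.80 and 2.54% of all genes tested on days 1, 3 and 7. Rasa1 encodes a GTPase-activating protein that binds the receptor and turns Ras off, and it stood at 21.7 CPM in sham, 53.5 on day 1, 59.9 on day 3 and 72.1 on day 7, a ratio of 2.46 (1.46–4.35) on day 1, 2.76 (1.66–4.81) on day 3 and 3.32 (2.02–5.73) on day 7. These levels rest on 19, 64, 84 and 105 UMIs, and no gene of the list passed 2-fold on days 1 and 3 without integration, or on day 1 with median ratio scaling. The list's median log2 ratio was 0.21, 0.12 and 0.48 on days 1, 3 and 7, against 0.01, 0.09 and 0.11 over all genes tested. Of 8 genes for the processing and retention of PDGF and its co-receptors, 6, 6 and 7 passed the limit on days 1, 3 and 7 and none passed 2-fold in pericyte-like cells. In endothelial zones, Nrp1, a co-receptor gene, passed 2-fold downward on day 1 in all 3 zones, with 0.371 (0.338–0.406) in capillary-like cells, when 2.89, 3.05 and 3.89% of all genes passed in arterial-like, capillary-like and venous-like cells. Sparc, whose protein binds PDGF-B, passed 2-fold downward on day 7 in arterial-like and capillary-like cells, with 0.397 (0.386–0.408) in the latter, when 1.00 and 1.27% of genes passed. Plat, which encodes tissue plasminogen activator, passed 2-fold in venous-like cells in both directions, with 0.431 (0.351–0.529) on day 3 and 2.12 (1.81–2.48) on day 7, when 5.51 and 1.46% of genes passed. In pericyte-like cells the Sparc ratio to sham was 0.850 on day 1, 0.782 on day 3 and 0.576 on day 7.

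The ligand gene Pdgfa, the only one of 4 further ligand and receptor-like genes above the limit in pericyte-like cells, stood at 142 CPM in sham, 91.0 on day 1, 84.9 on day 3 and 92.7 on day 7. Its ratio to sham was 0.642 (0.492–0.838) on day 1, 0.599 (0.462–0.777) on day 3 and 0.654 (0.509–0.841) on day 7. Among 8 regulators of mural identity, all passed the limit, and Foxc1, a forkhead factor, passed 2-fold on day 7 with 2.15 (1.82–2.55), as did 2.54% of all genes tested. The ratio of Notch3, the mural Notch receptor, was 1.16 on day 1, 1.34 on day 3 and 1.16 on day 7. Of 6 immediate-early genes, read as a sign of cell preparation, Fos, Fosb, Jun, Junb and Atf3 were more than 2-fold below sham in pericyte-like cells on day 3, and Jun on day 1, when 1.80 and 2.94% of all genes passed in either direction. In smooth muscle-like cells none of the 6 passed 2-fold on day 3, when 0.402% of all genes did, and their median log2 ratio was 0.45 against 0.06 over all genes tested. Fos stood at 3274 CPM in sham, 2050.4 on day 1, 809.8 on day 3 and 1915 on day 7 in pericyte-like cells. This list's median log2 ratio was -0.47, -1.90 and -0.49 in pericyte-like cells on days 1, 3 and 7 and 0.10, 0.45 and 0.49 in smooth muscle-like cells, so the days on which the 10 genes are compared also differed in these genes, and their part was not tested.

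Likeness of pattern was measured as the Pearson correlation of log2(CPM + 10) over 72 pairs of class and library, among 10530 genes reaching 50 CPM in 1 of them. These points share libraries and clusters, so the values are descriptions. The 5 genes most like Pdgfb were F11r (r = 0.92), Cd34 (0.91), B4galt4 (0.90), Tek (0.89) and Kitl (0.89). Those most like Pdgfrb were Pth1r (0.96), Cd248 (0.94), Slc19a1 (0.94), Nbl1 (0.94) and C1qtnf2 (0.94), of which Cd248 helped to name the pericyte-like class. Among the 10 genes, the pair closest over classes was Abcc9 and Kcnj8 (0.96), the same pair whose UMI ratio within pericyte-like cells was 2.20 times that of sham on day 7. Pdgfb and Pdgfrb had an r of -0.20.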

How the data were processed

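Per the file headers, the deposited matrices hold raw UMI counts per gene and cell from Cell Ranger 4.0.0, while the submitters' notes name Cell Ranger 3.0.1, Seurat 4.1.2 and GRCh38. The gene identifiers are of mouse, and 99.6% of 31053 matched GENCODE vM21 on GRCm38, from which gene positions were taken. Whether introns and strand were counted is not given in the sources used here. The limits on genes and mitochondrial UMIs per cell follow the study's methods, but they kept fewer cells in each library than the study states; the reason is not known here.

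Cells were integrated by canonical correlation and clustered (Seurat 5.3.0, 2000 variable genes, 30 dimensions, resolution 1), with the 10 genes kept out of the variable genes and of the naming markers. A cluster was named where at least 3 markers were detected in 10% of its cells and their mean log2 fold over the other cells was at least 3. An endothelial-like cluster instead needed 3 detected markers and no other class with a mean log2 fold of 1 or more. A cluster of low depth, with 3471 cells and all 6 endothelial markers detected, stayed unnamed and is outside the endothelial-like class. UMIs were summed per class and library and divided by the class total (CPM). With 1 library a group, no model was fitted: ratios have exact conditional intervals, levels exact Poisson intervals and shares Clopper-Pearson intervals at 95%, all for counting error only. Counts of genes past 2-fold used log2(CPM + 10) and genes of at least 20 CPM in either library. Comparisons need 50 cells in each library. A count of 0 is given a limit of 3 UMIs. Doublet scores came from Scrublet in scanpy 1.11.5. The ratios, their intervals and the 2-fold rule were run on simulated counts with known changes and counting error alone. Integration, clustering, naming, zones, thinning and doublet calls were not simulated. Promoter windows are from RefSeq (GRCm38.p6).

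The 10 genes, the pathway and marker lists and the named genes (the 10, the list genes, and the 5 genes most like Pdgfb and Pdgfrb) were chosen with earlier results of these data known. The alternatives changed integration, resolution, class markers, cell limits, doublets, scaling, the added CPM, the limit on low levels, thinning and free-RNA subtraction.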

Additional observations from a re-analysis of the deposited data

Results flagged for a closer look

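Pericyte-like cells were set beside vascular smooth muscle-like cells, and for Pdgfb the endothelial zones beside each other. In 6 cases a gene stood above sham in one class and below it in the other on the same day, with both counting intervals leaving out 1. The unnamed mural clusters were not part of this comparison. With 1 library in each group the differences between the classes were not tested. On day 3 the median log2 ratio of 6 immediate-early genes was -1.90 in pericyte-like and 0.45 in smooth muscle-like cells, and their part was not tested. On day 3, Pdgfrb was 1.13 (1.06–1.20) times sham in pericyte-like cells and 0.737 (0.659–0.824) times in vascular smooth muscle-like cells. Rgs5 was 1.24 (1.20–1.29) and 0.809 (0.767–0.854) on the same day, but the pericyte-like value was 0.979 without integration and 0.999 with a gate on marker UMIs. Cspg4 was 1.14 (1.05–1.24) and 0.898 (0.825–0.977) on that day. In the deeper of the 2 clusters of the pericyte-like class, the day 3 ratio was 1.06 (0.993–1.14) for Pdgfrb and 1.08 (0.978–1.19) for Cspg4, and both intervals included 1. In the shallower cluster it was 1.31 (1.13–1.52) for Pdgfrb and 1.36 (1.12–1.65) for Cspg4. Vtn on day 1 was 0.662 (0.649–0.676) in pericyte-like and 1.16 (1.05–1.27) in smooth muscle-like cells. Pdgfb on day 3 was 0.632 (0.458–0.872) in pericyte-like and 1.31 (1.04–1.65) in smooth muscle-like cells, beside endothelial markers in both. With the 2 unnamed mural clusters counted as pericyte-like, the first of these values was 0.979, and in the deeper pericyte-like cluster it was 0.540 (0.282–1.03), with an interval that included 1. In the endothelium, Pdgfb on day 3 was 1.14 (1.09–1.19) in capillary-like and 0.719 (0.641–0.807) in venous-like cells, but the venous-like value was 1.00 without integration, 1.01 without class markers among the variable genes as well, and 1.18 with the gate.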

How the results depend on the processing

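The order of the 4 shares of pericyte-like cells kept day 3 highest in every alternative, but the shares themselves moved. In sham and on days 1, 3 and 7 they were 6.65, 6.95, 9.38 and 7.47% without integration and 5.70, 6.43, 8.72 and 6.01% without integration and without class markers among the variable genes. With the 2 unnamed mural clusters counted in, an alternative chosen after seeing the data, they were 8.32, 8.04, 10.98 and 8.67%. A gate on marker UMIs gave 4.80% in sham and 7.83% on day 3. The limit of 6000 genes gave 4.17% on day 1, 5.66% on day 3 and 4.08% on day 7, the 5% mitochondrial limit gave 4.51% on day 1, and leaving out the highest 5% of doublet scores, also chosen after seeing the data, gave 4.12% on day 7. Sham was altered most by the limit of 6000 genes, which added 87 pericyte-like cells there and 13, 17 and 27 on days 1, 3 and 7.

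The limit of 6000 genes moved several ratios. Under it Pdgfrb in pericyte-like cells was 1.33, 1.73 and 1.68 on days 1, 3 and 7, Cspg4 1.34, 1.81 and 1.68, Kcnj8 1.11 on day 7, and Pdgfrb in smooth muscle-like cells 1.12 on day 7. Endothelial-like Pdgfb was 0.790, 0.983 and 1.26, and over all cells Atp13a5 was 0.866 on day 1 and Rgs5 0.823 on day 3. Pdgfra was 992 CPM in progenitor-like cells on day 1 and 430.0 and 633 CPM in fibroblast-like cells on days 1 and 3. For the other settings, Pdgfrb in pericyte-like cells was 0.967 with the gate, 0.947 without automatic doublet calls and 0.960 with the unnamed clusters on day 1, 1.25 and 1.21 under the mitochondrial limit on days 3 and 7, and 1.06 without the highest doublet scores on day 3. Clustering at resolution 2 gave smooth muscle-like Pdgfrb of 0.580 on day 1 and 0.896 on day 7. The gate gave endothelial-like Pdgfb of 0.839 and 0.985 on days 1 and 3 and fibroblast-like Pdgfra of 434 CPM on day 1. Progenitor-like Pdgfra on day 1 was 1360.2 CPM without doublet calls and 1385 CPM without the highest scores.

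Directions turned in these further cases, and the cause was not tested. Capillary-like Pdgfb on day 1 was 1.16 without integration and 1.01 without integration and class markers. Venous-like Pdgfb on day 3 was 1.00, 1.01 and, with the gate, 1.18. Rgs5 in pericyte-like cells was 0.979 without integration and 0.999 with the gate on day 3. On day 7 it was 0.905 without integration, 0.974 without class markers as well, and 0.949 with the unnamed clusters. Atp13a5 over all cells on day 1 was 0.915 under the mitochondrial limit. A move by over 1.5 times was also seen for Pdgfb in pericyte-like cells, which was 0.638 with the gate and 0.704 with 6000 genes on day 1, and 0.979 with the unnamed clusters on day 3. Of 324 alternative ratios of the 10 genes in pericyte-like cells, 8 moved by over 1.5 times, and of the 240 whose reported interval left out 1, 8 turned.

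The count of the 10 genes past 2-fold in pericyte-like cells, 0 as reported, was 1 on day 3 without integration, with the gate or under the mitochondrial limit, 2 on day 3 with 6000 genes or the unnamed clusters, and 2 on day 7 with 6000 genes. Over all cells it was 1 on day 1 and 0 on day 3 with 6000 genes, and 1 on day 7 under the mitochondrial limit. Of the 24 PDGF pathway genes, 0 passed on days 1 and 3 without integration and on day 1 with median ratio scaling, and 2 passed on day 7 with 1 CPM added. The mean share of pericyte-like cells with a UMI of the 8 genes was 51.8, 53.8, 60.7 and 58.1% at 500 UMIs and 82.1, 76.2, 85.9 and 83.6% without thinning.

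Each group is 1 library, so leaving out a library was not possible and differences between animals have no measure. No paired analysis was possible because no group has more than 1 sample. As reported, progenitor-like and fibroblast-like cells were too few in sham for Pdgfra ratios, so their levels were followed. With 6000 genes the progenitor-like ratios were 1.155, 0.318 and 1.04 on days 1, 3 and 7. The alternative without automatic doublet calls rests on a caller that called 0.264% of cells or fewer in 3 libraries.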
